A study of Mus musculus with 40 samples.

Results

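Cyclins, cyclin-dependent kinases (Cdks), Cdk inhibitors, E2F factors, the pocket proteins Rb1, Rbl1 and Rbl2 and the Cdc25 phosphatases were described in sorted cell populations of the mouse mammary gland. The members were all genes whose symbol is that of an A, B, D, E or G cyclin, a numbered Cdk, a Cdkn1, Cdkn2 or Cdkn3 gene, E2f1 to E2f8, a pocket protein or Cdc25a, Cdc25b or Cdc25c. This rule uses names only and found 52 of the 26132 genes that were listed in the adult or the pubertal count table, and all 52 were in both tables. The RNA-seq libraries came from wildtype female FVB/N mice with no transgene or treatment, in puberty (34 to 36 days of age, 4 mice per pool) and as adults of 14 to 16 weeks in proestrus, estrus, metestrus or diestrus (2 or 3 mice per pool). Luminal cells (EpCAM high, CD49f medium), basal cells (EpCAM medium, CD49f high) and non-adipose stromal cells lacking both proteins, called fibroblasts here, were sorted after removal of cells with the lineage markers CD45, CD31 or Ter119, and adipocytes were the floating fat fraction, which was not sorted. Pubertal mice were pooled ahead of the sort, while cells of adult mice were sorted mouse by mouse and joined when the RNA was isolated. The second pubertal adipocyte library came from mice of another day than the other second pubertal libraries. There were 2 libraries for each of the 4 cell types in puberty and in each of the 4 adult stages, 40 in all. The 2 pools of an adult stage were formed from cytology and histology as earlier and later within the stage or, where no clear difference was seen, by cell number, so that they were not drawn at random.

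In the cell cycle, D cyclins with Cdk4 or Cdk6 and then E cyclins with Cdk2 phosphorylate the pocket proteins, which releases E2F factors to switch on genes for DNA replication. A cyclins with Cdk2 and Cdk1 carry the cell through S phase, and B cyclins with Cdk1, whose inhibitory phosphate is removed by Cdc25 phosphatases, bring it into mitosis. Ink4 inhibitors (Cdkn2 genes) block Cdk4 and Cdk6, and Cip/Kip inhibitors (Cdkn1 genes) bind several cyclin and Cdk pairs, while many of the higher numbered Cdks act in transcription or in differentiated cells. In the mammary gland the epithelium grows into the fat pad in puberty. Reports on whether and when it proliferates over the adult estrous cycle conflict.

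The promoters of 4 members whose RNA was higher in basal cells in estrus (below, with their values) are shown because cell cycle genes of this kind carry known sequence elements there. The letters are from RefSeq on GRCm38.p6, from 250 bases before to 50 after the annotated start, 5′ to 3′ on the gene's strand, which is the minus strand for all 4. Capitals mark the CHR element (TTTGAA), the CCAAT box (CCAAT) and an E2F site (TTTGGCGC, TTTCCCGC or TTTCGCGC), searched on both strands, with no overlap among the capitals printed. The Cdk1 promoter lies at chr10:69352863-69353162, the Ccnb1 promoter at chr13:100786437-100786736, the Ccnb2 promoter at chr9:70421505-70421804 and the E2f8 promoter at chr7:48881547-48881846.
Cdk1: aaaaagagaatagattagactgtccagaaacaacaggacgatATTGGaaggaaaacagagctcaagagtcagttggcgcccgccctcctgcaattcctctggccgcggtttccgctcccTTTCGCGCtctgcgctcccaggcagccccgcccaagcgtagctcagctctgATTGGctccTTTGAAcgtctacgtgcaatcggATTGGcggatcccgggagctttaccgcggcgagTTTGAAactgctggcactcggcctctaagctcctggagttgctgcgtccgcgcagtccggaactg
Ccnb1: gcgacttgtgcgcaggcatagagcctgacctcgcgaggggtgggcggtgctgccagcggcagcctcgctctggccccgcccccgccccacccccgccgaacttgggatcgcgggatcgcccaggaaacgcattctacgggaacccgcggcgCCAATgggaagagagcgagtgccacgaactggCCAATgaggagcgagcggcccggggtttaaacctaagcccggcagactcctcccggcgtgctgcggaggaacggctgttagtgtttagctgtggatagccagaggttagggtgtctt
Ccnb2: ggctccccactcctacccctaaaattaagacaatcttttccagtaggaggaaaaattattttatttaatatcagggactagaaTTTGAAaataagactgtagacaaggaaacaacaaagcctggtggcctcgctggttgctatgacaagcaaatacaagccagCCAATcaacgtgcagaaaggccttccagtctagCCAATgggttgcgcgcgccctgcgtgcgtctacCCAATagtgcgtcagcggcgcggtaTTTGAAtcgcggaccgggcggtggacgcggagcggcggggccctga
E2f8: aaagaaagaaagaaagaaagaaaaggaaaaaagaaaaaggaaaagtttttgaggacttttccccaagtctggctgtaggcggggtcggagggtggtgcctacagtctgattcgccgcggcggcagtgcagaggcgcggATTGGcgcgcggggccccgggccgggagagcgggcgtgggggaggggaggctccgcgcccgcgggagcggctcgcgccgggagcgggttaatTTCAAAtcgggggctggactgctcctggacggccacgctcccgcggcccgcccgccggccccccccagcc

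Cdk1 held CHR elements that begin 71 and 15 bases before the start, Ccnb2 held one 167 bases before it and another just after it, and E2f8 held one 20 bases before it, while these letters are not in the window of Ccnb1. All 4 windows held at least 1 CCAAT box, and Cdk1 also held an E2F site 131 bases before the start. Of the 47 promoters listed for 40 members, 19.1% held a CHR element, 48.9% a CCAAT box, 17% an E2F site and 14.9% both a CHR element and a CCAAT box. Cdc25c, on chromosome 18, and Ccna2 were not among these 40 members. Of all 32851 promoters in the table, 17.9% held a CHR element, 37.4% a CCAAT box, 1.84% an E2F site and 6.95% the first and second together. These matches describe the letters in the windows, and binding was not measured.

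Each library held between 8991222 and 22760563 deposited counts (median 16983304). Levels are in CPM, the counts of a gene relative to its library total, scaled by TMM. The summed CPM of 8 luminal markers lay between 17624 and 36053 in the luminal libraries, that of 8 basal markers between 12356 and 21769 in the basal libraries, and that of 7 fibroblast markers between 18271 and 110052 in the fibroblast libraries. In the adipocyte libraries 7 adipocyte markers summed to 3575 to 18583 CPM. There fibroblast markers reached 18275, basal markers 4676, endothelial and pericyte markers 2997 and leukocyte markers 557 CPM, so that marker RNA of other cell types was also found in the fat fraction. The sorted cells held such RNA too. In adult fibroblasts endothelial and pericyte markers summed to 2047 to 3787 CPM and basal markers to 1091 to 2054 CPM. In adult basal cells luminal markers summed to 2296 to 2980 CPM. The pubertal and the adult libraries were sequenced in separate runs, so that age and run cannot be told apart in any comparison between them. In bulk RNA, fewer cells of a type and less RNA per cell cannot be told apart either.

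The summed CPM of the 52 members in the adult libraries had a median of 1810 in fibroblasts, 1680 in adipocytes, 1523 in basal and 1406 in luminal cells. Ccna1 and Ccnb3, which are best known from germ cells, and Cdkn2a, which encodes an Ink4 inhibitor and the p53 activator Arf, stayed below the filter of more than 1 CPM in at least 2 libraries in every comparison. Ccnb3 had no read in the 10 luminal, 10 basal and 10 adipocyte libraries, and Cdk15, a little studied Cdk, had none in the 10 luminal libraries. A count of 0 allows up to 3 counts, or 0.132 to 0.334 CPM depending on the library, and this limit covers counting error only.

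**Figure D1:**
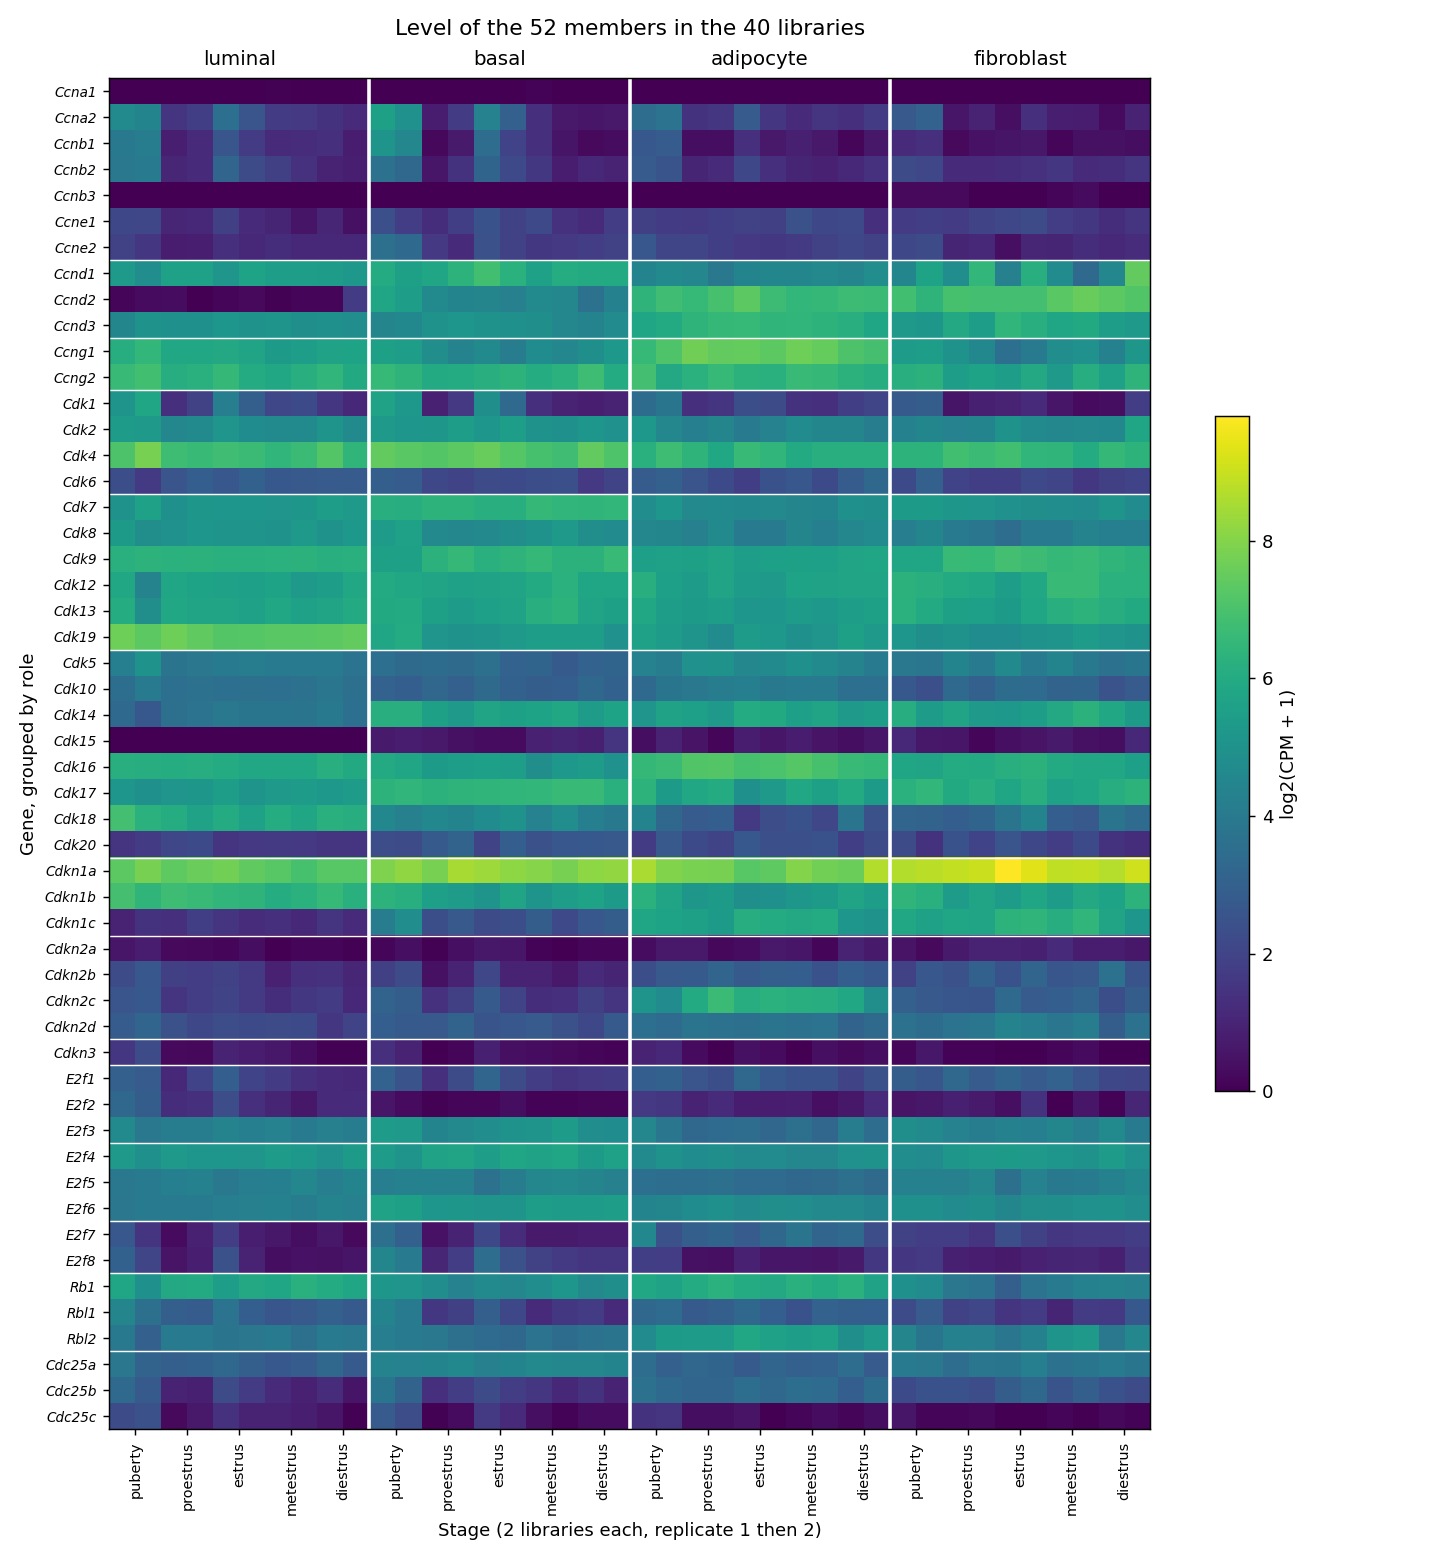
Heat map of the 52 members (rows, grouped by role) in the 40 libraries (columns, grouped by cell type, with puberty first and then proestrus, estrus, metestrus and diestrus), colored by log2(CPM + 1). Cdk1 and Ccna2 were highest in the pubertal columns of each cell type, Ccnd2 was near 0 in luminal columns and above 80 CPM in all stromal columns, and Cdk19 was highest in luminal columns.

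Across the adult libraries, 40 of the 48 members tested differed between epithelial cells (the mean of luminal and basal) and stromal cells (the mean of adipocytes and fibroblasts) by edgeR's quasi-likelihood test at an adjusted p under 0.05, 21 of them higher and 19 lower in epithelium. Of all 15077 genes tested, 81.6% were called in this comparison (40.2% higher, 41.5% lower). The share of members called was near that of all genes. Between luminal and basal cells 35 of 48 members differed (14 higher and 21 lower in luminal cells) against 73.6% of all genes (35.3% higher, 38.3% lower). Between adipocytes and fibroblasts 35 of 48 differed (19 higher and 16 lower in adipocytes) against 78.4% of all genes (39.2% higher, 39.1% lower). In puberty, with 2 libraries per cell type, 21 of 48 members differed between epithelium and stroma (13 higher, 8 lower). Of all genes 46.3% did (18.9% higher, 27.3% lower). Between luminal and basal cells 13 members differed (5 higher, 8 lower), against 37.2% of all genes (18.3% higher, 18.9% lower). Between adipocytes and fibroblasts 9 differed (8 higher, 1 lower), against 28.4% of all genes (17% higher, 11.3% lower). The pubertal count between luminal and basal cells was 8 without basal puberty replicate 1. The pubertal count between adipocytes and fibroblasts was 5 without either basal puberty replicate, 3 without fibroblast puberty replicate 1 and 2 without fibroblast puberty replicate 2.

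The D cyclins, which couple growth signals to the cell cycle, were divided between epithelium and stroma. Ccnd2 (chr6:127125162-127152193 on GRCm38) was at 0 to 2.25 CPM (median 0.103) in the 8 adult luminal libraries and at 12.1 to 24.8 (median 20.7) in basal cells. In adipocytes Ccnd2 was at 89.4 to 160 CPM (median 103) and in fibroblasts at 116 to 185 (median 131). No luminal library overlapped any basal library, and no basal library any stromal library. Ccnd2 was lower in epithelium by a log2 fold change of -5.90 ± 0.21 (SE, adjusted p = 4.69e-16) and lower in luminal than in basal cells by -6.60 ± 0.35 (adjusted p = 6.35e-13). The single luminal library above 0.3 CPM was diestrus replicate 2. In puberty Ccnd2 was at 54.9 and 44.7 CPM in basal and at 0.0835 and 0.23 in luminal cells, a luminal against basal log2 difference of -8.41 ± 0.49 (adjusted p = 2.07e-05).

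Ccnd3 was also a stromal D cyclin, at 27 to 34.4 CPM in luminal, 19.9 to 35.0 in basal, 55.5 to 95.0 in adipocyte and 37.9 to 87.9 in fibroblast adult libraries. Both epithelial ranges lay below both stromal ranges (log2 fold change -1.21 ± 0.06, adjusted p = 1.8e-13). Ccnd1 was higher in epithelium (0.79 ± 0.24, adjusted p = 0.00462), but its adult fibroblast libraries spread from 9.14 to 174 CPM around a median of 26.5. The libraries at 89.8, 72.8 and 174 CPM were replicate 2 of proestrus, estrus and diestrus. Per kb of exon the leading D cyclin in adult luminal cells was Ccnd1 with 9.18 ± 1.26 CPM per kb (SD over 8 libraries of 4 stages), against 3.47 ± 0.284 for Ccnd3 and 0.0402 ± 0.0808 for Ccnd2. In basal cells Ccnd1 led with 14.9 ± 4.34 CPM per kb. In adipocytes Ccnd2 led with 11.5 ± 2.44 and in fibroblasts with 14.8 ± 2.72, where the Ccnd1 level of 11.7 ± 11.9 was within the spread.

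Of the partners of D cyclins, Cdk4 was far above Cdk6 in every cell type. Cdk4 had 32.2 ± 5.58, 45.3 ± 7.52, 23.2 ± 4.18 and 28.4 ± 5.34 CPM per kb in adult luminal, basal, adipocyte and fibroblast libraries, and Cdk6 had 0.425 ± 0.0516, 0.244 ± 0.0499, 0.357 ± 0.139 and 0.198 ± 0.0321. Exons of Cdk4 overlap those of Tspan31, exons of Ccnd1 those of LTO1 and exons of Ccnd3 those of Bysl on the opposite strand. The libraries were stranded, but the strand setting of the counting is not given in the sources used here, so that reads in the shared bases may be split or joined. Cdk2, the partner of E and A cyclins, was at 26.7 ± 4.01 CPM in luminal, 35.2 ± 5.07 in basal, 19.8 ± 3.13 in adipocyte and 27.3 ± 11.6 in fibroblast libraries, ranges that overlapped except between basal cells and adipocytes.

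**Figure D2:**
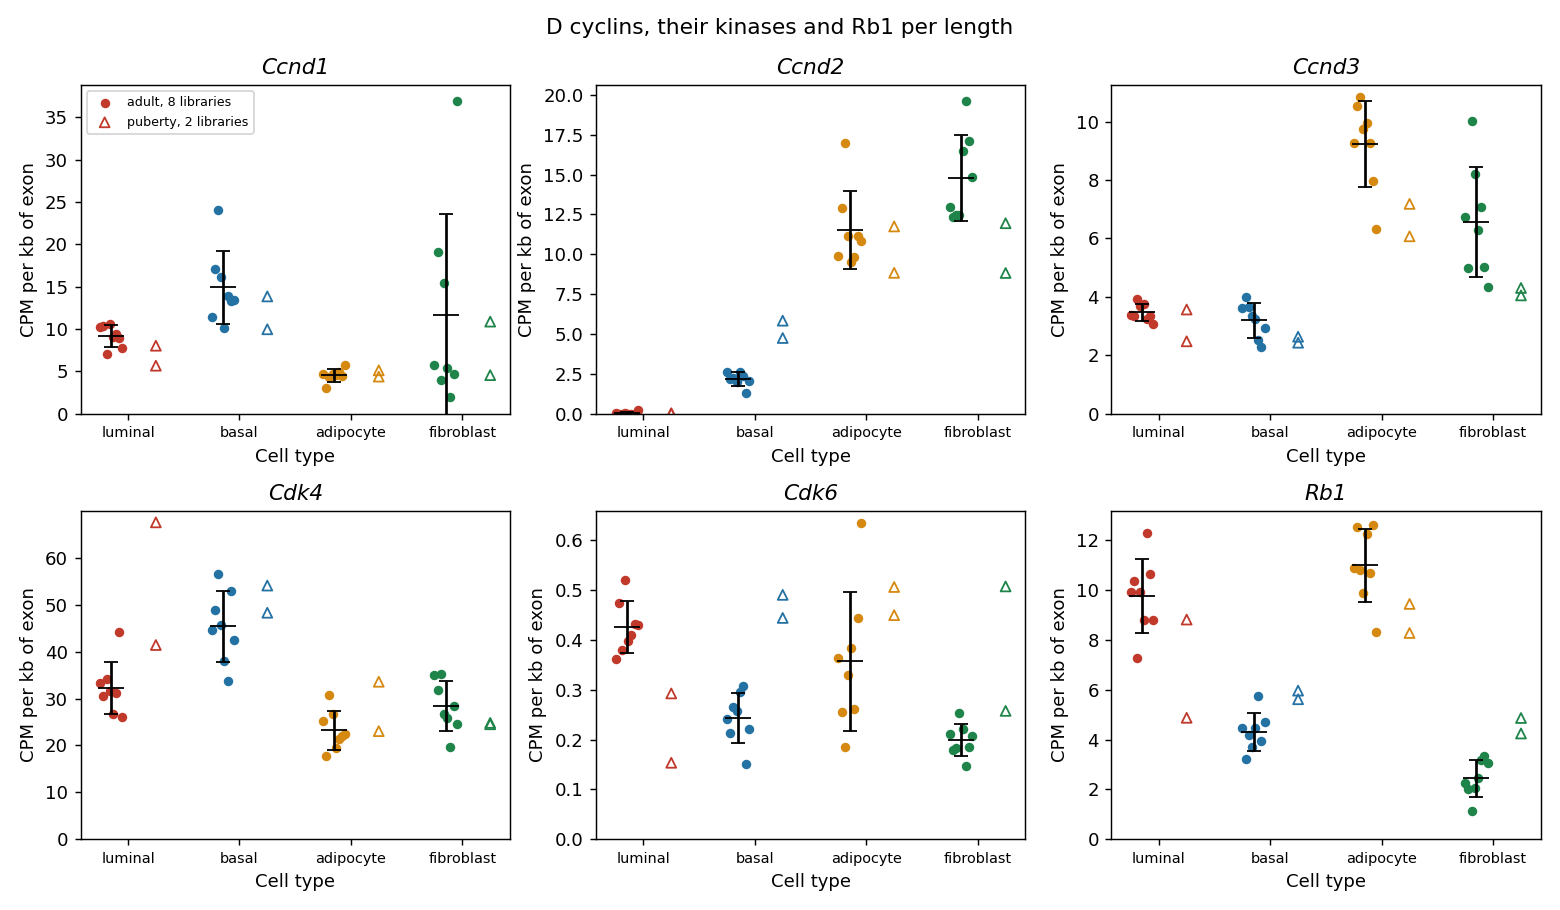
Level in CPM per kb of exon (vertical axes) of Ccnd1, Ccnd2, Ccnd3, Cdk4, Cdk6 and Rb1 in the 4 cell types (horizontal axes). Points are the 8 adult libraries with their mean and SD, and triangles are the 2 pubertal libraries; Ccnd2 was near 0 in luminal cells and at a mean of 14.8 in fibroblasts, and Rb1 was at 11 in adipocytes and 2.45 in fibroblasts.

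Of the 6 Cip/Kip and Ink4 inhibitors tested in the adult libraries, 5 were lower and 1 was higher in epithelium than in stroma, where 41.5% of all genes were lower and 40.2% higher. Cdkn1c, an imprinted Cip/Kip inhibitor, was at 1.21 to 2.53 CPM (median 1.53) in adult luminal and 3.43 to 6.35 (median 4.71) in basal libraries. It was at 31.9 to 68.6 CPM (median 53.3) in adipocytes and 34.6 to 86.9 (median 60.7) in fibroblasts, so that epithelial and stromal libraries did not overlap (log2 fold change -4.30 ± 0.10, adjusted p = 1.36e-18). In puberty the basal level was 17 and 27.4 CPM and the luminal level 0.96 and 1.69 (luminal against basal -4.10 ± 0.40, adjusted p = 0.000143).

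Cdkn2c, the Ink4 inhibitor called p18, was the adipocyte member of the group. The 8 adult adipocyte libraries had 27.6 to 103 CPM (median 67.5), with the lowest value in diestrus replicate 2. Of the adipocyte libraries this one had the highest sums of basal markers (4676 CPM) and of epidermis markers (2425 CPM). Epidermis markers summed to at most 313 CPM in the other adult adipocyte libraries. The part of such RNA in the value was not tested. Fibroblasts had 4.07 to 9.13 CPM (median 6.30), and luminal and basal libraries had at most 5.91. Cdkn2c was 10.4-fold higher in adipocytes than in fibroblasts (log2 3.38 ± 0.20, adjusted p = 3.07e-12). In puberty it was 4.48-fold higher (log2 2.16 ± 0.30, adjusted p = 0.00193), with 32.7 and 25.7 CPM in adipocytes and 7.11 and 5.67 in fibroblasts.

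Cdkn1a, the p53 target p21, was the most abundant inhibitor per kb of exon in every cell type, with adult means of 46.1 ± 7.5, 79.4 ± 14.4, 64.8 ± 22.8 and 158 ± 43.7 CPM per kb in luminal, basal, adipocyte and fibroblast libraries. In CPM the fibroblast libraries had 419 to 897 (median 499) and the adipocyte libraries 154 to 413 (median 218), without overlap (adipocytes against fibroblasts -1.29 ± 0.14, adjusted p = 3.15e-08). The immediate early genes, which tissue digestion is known to induce, also summed higher in adult fibroblasts (8613 to 19806 CPM) than in adult adipocytes (4326 to 8634 CPM), and their part in the Cdkn1a difference was not tested. Cdkn1b, which holds cells in quiescence, was the inhibitor higher in epithelium, and within it luminal libraries with 66.9 to 109 CPM did not overlap basal libraries with 32.5 to 52.4 (log2 1.01 ± 0.12, adjusted p = 2.35e-07). Cdkn2b and Cdkn2d were lower in epithelium, with adult means of 1.87 and 3.47 CPM in luminal, 1.16 and 5.42 in basal, 6.24 and 11.2 in adipocyte and 6.45 and 14.0 in fibroblast libraries.

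**Figure D3:**
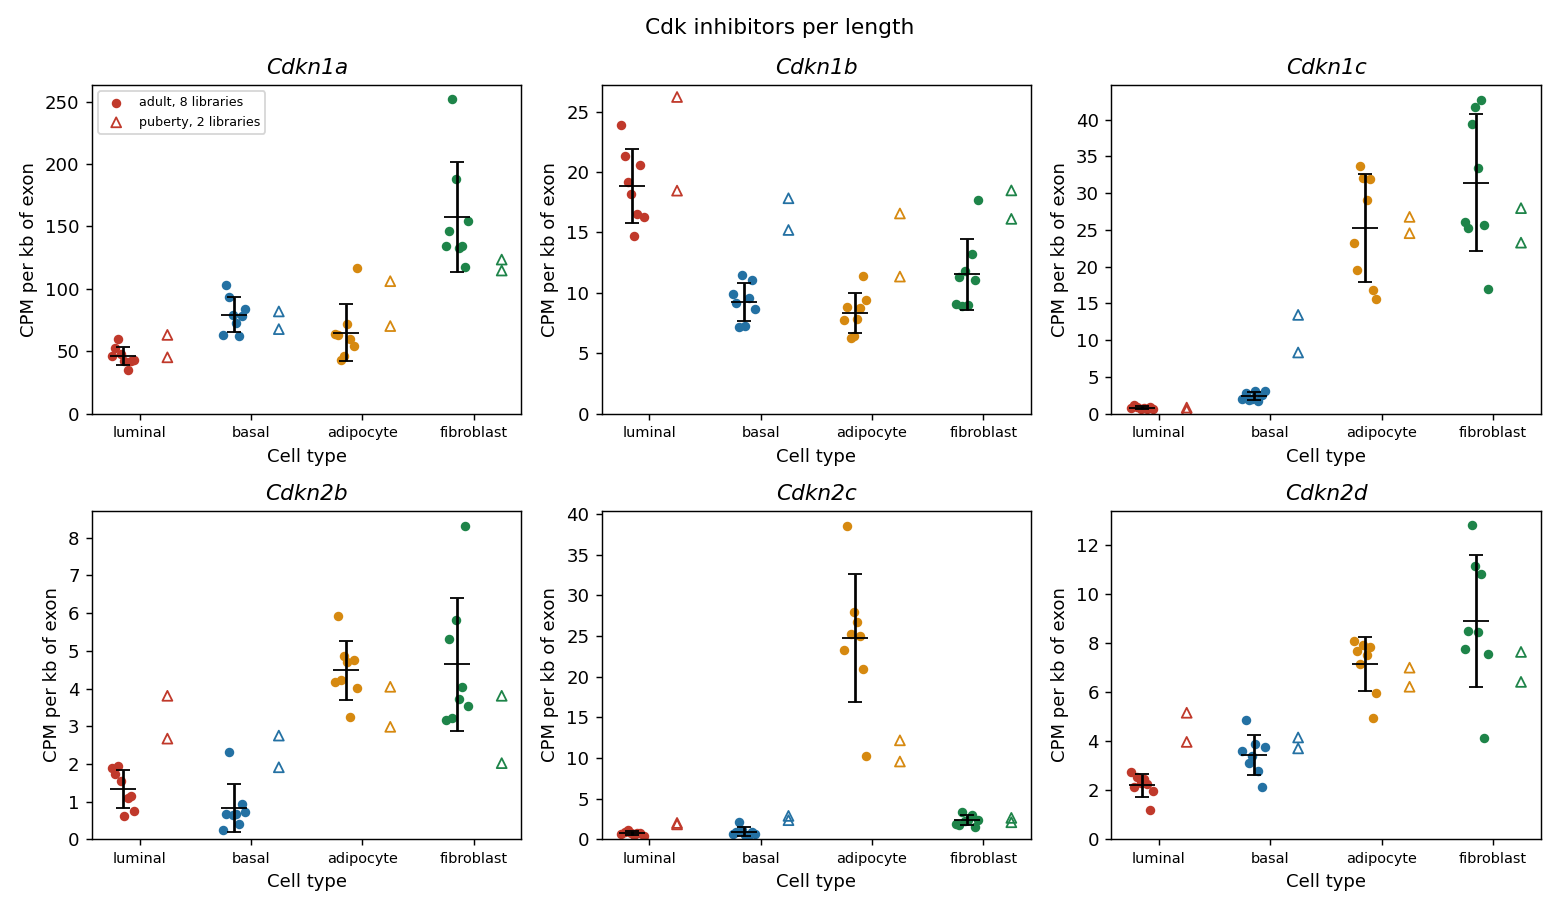
Level in CPM per kb of exon (vertical axes) of Cdkn1a, Cdkn1b, Cdkn1c, Cdkn2b, Cdkn2c and Cdkn2d in the 4 cell types (horizontal axes). Points are the 8 adult libraries with their mean and SD, and triangles are the 2 pubertal libraries; Cdkn2c had a mean of 24.7 in adipocytes and 2.35 in fibroblasts, and Cdkn1c was at 25.2 and 31.4 in the stromal and at 0.803 and 2.40 in the epithelial cell types.

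The pocket proteins, which hold E2F factors in check, were all higher in luminal than in basal cells and in adipocytes than in fibroblasts. Rb1 was at 50 to 75.7 CPM (median 65.1) in adult adipocytes and at 6.89 to 20.1 (median 14.3) in fibroblasts, without overlap (log2 2.20 ± 0.13, adjusted p = 4.71e-12). In epithelium Rb1 was at 43.6 to 73.7 CPM (median 59.6) in luminal and 19.4 to 34.5 (median 26) in basal libraries (log2 1.19 ± 0.12, adjusted p = 3.06e-08). Rbl2 was lower in epithelium than in stroma (-1.24 ± 0.08, adjusted p = 3.79e-12), with 8.8 to 16.1 CPM over the luminal and basal and 13.3 to 56.0 over the adipocyte and fibroblast libraries, which overlapped. Exons of Rb1 overlap those of Rcbtb2 and Lpar6, and exons of Rbl2 those of Aktip, on the opposite strand.

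Among the E2F factors, E2f3, an activator, was higher in epithelium (0.67 ± 0.08, adjusted p = 1.7e-07) and lower in adipocytes than in fibroblasts (-0.88 ± 0.12, adjusted p = 9.29e-07), with adult medians of 17.4 CPM in luminal, 27.1 in basal, 9.96 in adipocyte and 18.5 in fibroblast libraries. E2f5, a repressor, was lower in adipocytes than in fibroblasts both in the adult (-0.81 ± 0.11, adjusted p = 7.9e-07) and in puberty (-0.82 ± 0.25, adjusted p = 0.0389), and its pubertal levels were 11 and 10.7 against 18.8 and 18.7 CPM. The pubertal call of E2f5 was lost without any 1 of the 6 basal, adipocyte or fibroblast libraries and with no filter on low counts (adjusted p 0.0747 to 0.157). E2f6, a repressor that acts without the pocket proteins, was at 15.1 to 19.7 CPM in luminal and 32.6 to 43.3 in basal adult libraries, without overlap (-1.10 ± 0.07, adjusted p = 6.93e-12). E2f2, an activator, was close to absent from basal cells, with 0.0502 to 0.28 CPM in the 8 adult libraries against 0.564 to 3.95 in luminal cells. In puberty E2f2 was at 8.64 and 6.44 CPM in luminal and 0.511 and 0.207 in basal cells (log2 4.37 ± 0.52, adjusted p = 0.000405).

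Several Cdks outside the core cycle also differed among the cell types. Cdk19, a kinase of the Mediator complex (chr10:40339564-40483818), was at 144 to 197 CPM (median 160) in adult luminal libraries and at 25.5 to 46.4 in the 24 other adult libraries. It was 4.42-fold higher in luminal than in basal cells (log2 2.14 ± 0.09, adjusted p = 2.7e-14). In puberty the log2 difference was 1.58 ± 0.25 (adjusted p = 0.00175), with 198 and 159 CPM in luminal and 55.6 and 64.1 in basal cells. Its paralog Cdk8 was higher in epithelium than in stroma (0.78 ± 0.07, adjusted p = 5.73e-10), with adult means of 33.5 ± 2.71 CPM in luminal, 27.6 ± 5.27 in basal, 20.1 ± 3.77 in adipocyte and 15.7 ± 3.04 in fibroblast libraries. Cdk18, a PCTAIRE kinase, was also luminal, at 47.8 to 74.0 CPM against 14.7 to 31 in basal cells (1.46 ± 0.17, adjusted p = 1.18e-07), and was higher in epithelium than in stroma (2.40 ± 0.13, adjusted p = 3.59e-13).

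Basal cells had more Cdk7, the Cdk-activating kinase that is also part of the transcription factor TFIIH. Its adult basal libraries had 69.6 to 90.8 CPM (median 82.4), and no other adult library was above 44.0 (luminal against basal -1.18 ± 0.06, adjusted p = 7.87e-13; epithelium against stroma 1.01 ± 0.05, adjusted p = 1.85e-14). Cdk14, a partner of cyclin Y at the plasma membrane, was low in luminal cells alone, at 11.1 to 14.6 CPM against 36.8 to 77.7 over the other 3 cell types (luminal against basal -1.90 ± 0.10, adjusted p = 7.84e-13). In puberty Cdk14 was at 9.22 and 5.52 CPM in luminal and 71.3 and 72.8 in basal cells (-3.28 ± 0.39, adjusted p = 0.000361). Cdc25a, the Cdc25 phosphatase of the G1 to S transition, was likewise basal, at 18.3 to 23.8 CPM against 5.51 to 8.87 in luminal libraries (-1.61 ± 0.12, adjusted p = 1.71e-10).

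Adipocytes had the highest levels of Ccng1, a cyclin induced by p53, and of Cdk16, another PCTAIRE kinase. Ccng1 was at 120 to 204 CPM (median 177) in adult adipocytes and 10.9 to 36.0 (median 25.1) in fibroblasts, 7.18-fold higher (log2 2.84 ± 0.13, adjusted p = 1.26e-13). In puberty it was at 94.7 and 136 against 41.3 and 44.1 CPM (1.41 ± 0.28, adjusted p = 0.00855, and 0.0648 to 0.0832 without either fibroblast library). Cdk16 was at 90.9 to 147 CPM in adipocytes and 44.8 to 78.0 in fibroblasts (0.99 ± 0.08, adjusted p = 4.61e-10). Cdk10 was likewise higher in adipocytes (0.91 ± 0.09, adjusted p = 2.3e-08), at 11 to 17.9 against 4.66 to 10.1 CPM. Fibroblasts in turn had more of the elongation kinases Cdk9 (77.1 to 117 against 43.2 to 54.6 CPM; adipocytes against fibroblasts -0.97 ± 0.06, adjusted p = 1.89e-11) and Cdk12 (42.9 to 99.5 against 37.3 to 52 CPM; -0.57 ± 0.08, adjusted p = 2.23e-06).

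The median levels of Cdk1 and Ccna2 were low in all adult cell types. In the adult medians Cdk1, the mitotic kinase, was at 2.98 CPM in luminal, 1.29 in basal, 2.18 in adipocyte and 0.677 in fibroblast libraries, and Ccna2 at 2.21, 1.1, 1.86 and 0.716 CPM. Their ranges over the 8 libraries of a cell type overlapped between neighbors in this order. The summed CPM of the 20 other mitotic genes on a list that holds Mki67 and Top2a had adult medians of 89.8, 33.6, 45.2 and 30.9. A list of 20 S phase and E2F target genes summed higher, with adult medians of 239, 378, 221 and 395 CPM. In fibroblasts the pubertal sums of that list, 372 and 379 CPM, lay within the adult range of 344 to 449. In puberty Ccnb1, the cyclin that drives mitosis, was at 14.5 and 16.6 CPM in luminal, 32.5 and 22.5 in basal, 5.57 and 6.18 in adipocyte and 1.32 and 1.51 in fibroblast libraries. The pubertal difference between epithelium and stroma was 2.78 ± 0.23 for Ccnb1 (adjusted p = 3.19e-05), 2.28 ± 0.24 for Cdk1 (adjusted p = 0.000116) and 1.72 ± 0.22 for Ccna2 (adjusted p = 0.000387).

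Over the estrous cycle, basal cells in estrus had higher levels of 6 members than the mean of the other 3 stages, all of them genes of S phase and mitosis. These were Cdk1, Ccna2, Ccnb1, Ccnb2, Cdc25c and E2f8, and none of the 47 members tested was lower. Of all 12122 genes, 1.20% were called higher and 0.00825% lower. Ccnb1, Cdc25c and E2f7 passed the filter on low counts only through the estrus libraries, so that the filter itself favored a difference. E2f7 was not called, and 4 of the 6 called members passed without the estrus libraries.

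Cdk1 had 28.4 and 9.25 CPM in basal estrus replicates 1 and 2, and 0.784 to 2.1 (median 0.948) in the 6 other adult basal libraries (log2 fold change 4.02 ± 0.40, adjusted p = 0.00945). Ccna2, the S phase cyclin, had 19.2 and 7.12 CPM in estrus and 0.49 to 2.38 in the other stages (3.80 ± 0.45, adjusted p = 0.0104). Ccnb1 had 172 and 52 reads in estrus and 3 to 19 reads in the other libraries (10.3 and 2.92 against 0.151 to 1.51 CPM; 3.90 ± 0.54, adjusted p = 0.0116). For each of the 6 called members both estrus libraries lay above all 6 others, which the call itself made likely, and replicate 1 lay above replicate 2. Of the 47 members tested, 12 lay above in both estrus libraries (4.83% of all genes) and 5 below (3.99%). Ccnb1, Cdc25c and E2f7, which passed the filter only through estrus, were among the 12. Cdc25c, the phosphatase that activates Cdk1 at mitosis, had 36 and 22 reads in estrus and 1 to 5 in each other library (3.18 ± 0.50, adjusted p = 0.016). E2f8, an atypical E2F that represses other E2F targets, had 10.3 and 4.43 CPM against 1.06 to 2.77 (1.90 ± 0.35, adjusted p = 0.0305), and Ccnb2, the other B cyclin of mitosis, 8.05 and 3.48 CPM against 0.502 to 1.98 (2.33 ± 0.45, adjusted p = 0.0403). As printed above, the windows of Cdk1, Ccnb2 and E2f8 held a CHR element with a CCAAT box and that of Ccnb1 held CCAAT boxes alone. The promoters of Ccna2 and Cdc25c are not shown.

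Beside the module, on the list of S phase and E2F target genes 10 of 20 were higher in estrus and none was lower, with a median log2 fold change of 1.64 (all genes -0.01), led by Pclaf (4.35 ± 0.58, adjusted p = 0.0104), a partner of the replication clamp. On the list of mitotic genes, 14 of the 18 tested were higher and none lower (median 2.64), among them Top2a (3.72 ± 0.40, adjusted p = 0.00945), the topoisomerase of chromosome segregation. Of all genes 1.20% were called higher. The mitotic list summed to 259 and 89.0 CPM in basal estrus and to 22.4 to 42.2 CPM in the other adult basal libraries. Low genes of the lists could therefore pass the filter through the estrus libraries alone, and how many did was not counted. Of 26 partners and regulators of cyclins and Cdks 1 was higher, Mybl2 (2.17 ± 0.31, adjusted p = 0.0126), which works with the complex that binds CHR elements. The number of members called fell from 6 to 0 without basal estrus replicate 1, without basal diestrus replicate 1 or without basal diestrus replicate 2, and to 3 without basal metestrus replicate 2. Without estrus replicate 1 the log2 fold change of Cdk1 was 2.98 ± 0.37 (adjusted p = 0.17) and that of E2f8 was 1.16 ± 0.39 (adjusted p = 0.894), and for Cdk1 without diestrus replicate 1 it was 4.01 ± 0.48 (adjusted p = 0.0533).

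In luminal cells 0 of 46 members and 0% of all genes were called in estrus by edgeR, with 13 members at an unadjusted p under 0.05 (8.74% of all genes) and 7 called by DESeq2 (1.45% of all genes). Cdc25c, E2f7 and E2f8 would not have passed the filter on low counts without the luminal estrus libraries, so that the filter itself favored a difference for them. The members with the smallest p were also Ccnb2, Ccna2 and Cdk1. Ccnb2 had 8.15 and 3.89 CPM in estrus and 0.781 to 2.63 in the other stages (2.21 ± 0.30). Ccna2 had 11 and 5.02 against 1.33 to 2.53 (2.03 ± 0.28). Cdk1 had 17.1 and 6.75 against 1.19 to 3.60 (2.40 ± 0.33), and the adjusted p was 0.0868 for each of them. Both estrus libraries lay above the 6 others for these members, which were picked by p, with replicate 1 above replicate 2 as in basal cells. Of the 46 members tested, 9 lay above in both estrus libraries (5.59% of all genes) and 1 below (3.02%). E2f8 was among the 9. Without luminal estrus replicate 2 the log2 fold change was 2.64 for Ccnb2, 2.48 for Ccna2 and 2.92 for Cdk1.

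In adipocytes 0 of 44 members and in fibroblasts 0 of 42 were called in estrus by edgeR (0% of all genes in each), with 15 and 12 at an unadjusted p under 0.05 and 2 and 5 called by DESeq2. Of all genes 16.7% in adipocytes and 20.8% in fibroblasts were under that p, and DESeq2 called 3.07% and 11%. In adipocytes Cdk1 had 4.11 and 3.72 CPM in estrus against 1.53 to 3.18 (1.06 ± 0.21, adjusted p = 0.218). Cdkn1c had 68.6 and 65.4 against 31.9 to 65.0 (0.66 ± 0.12, adjusted p = 0.218) and Cdk14 64.7 and 61.9 CPM in its estrus libraries (0.62 ± 0.13, adjusted p = 0.218). In fibroblasts the smallest p values were those of Cdk18 (12.8 and 20.5 CPM in estrus, 0.99 ± 0.23, adjusted p = 0.0813), Cdk12 (42.9 and 58.4 CPM, -0.68 ± 0.17, adjusted p = 0.0839) and Ccng1 (10.9 and 15.9 CPM, -1.14 ± 0.30, adjusted p = 0.0897). Cdk1 in fibroblasts stayed at 0.961 and 1.31 CPM in estrus against 0.219 to 2.42, which overlapped, and the highest library was diestrus replicate 2.

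The difference of the estrus effect between epithelium and stroma was tested itself. None of 48 members was called by edgeR (0.0199% of all genes), 16 were at an unadjusted p under 0.05 (10.5% of all genes) and 2 were called by DESeq2 (0.812% of all genes). The smallest p values were again those of S phase and mitosis genes, with a difference in log2 fold change of 2.33 ± 0.55 for Cdk1 and 2.33 ± 0.55 for E2f8 (adjusted p = 0.123 for both) and 1.68 ± 0.46 for Ccnb2 (adjusted p = 0.193). Outside the module the proliferation marker Mki67 passed with 3.97 ± 0.67 (adjusted p = 0.0424). The count of members was 1 without luminal estrus replicate 2, 3 without basal estrus replicate 2 and 4 without fibroblast estrus replicate 2. In the 6 comparisons of pairs of stages no member was called in any cell type by edgeR. In at least 1 pair, 21 luminal, 32 basal, 29 adipocyte and 21 fibroblast members reached an unadjusted p under 0.05, against 31.4%, 42.9%, 48.6% and 46.9% of all genes. DESeq2 called 5, 13, 10 and 9 members in at least 1 pair, against 4.48%, 8.44%, 24.4% and 17% of all genes. The fibroblast counts were near these shares, and so was the adipocyte count by DESeq2. Of all genes in luminal cells 0.0569% were called between estrus and proestrus (0.0163% higher, 0.0406% lower), 0.195% between metestrus and proestrus (0.0406% higher, 0.154% lower) and 0.252% between diestrus and proestrus (0.0406% higher, 0.211% lower). In basal cells 0.0247% were called between metestrus and proestrus (0.00825% higher, 0.0165% lower), in adipocytes 0.0801% between diestrus and estrus (all higher), and 0% in the other pairs.

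**Figure D4:**
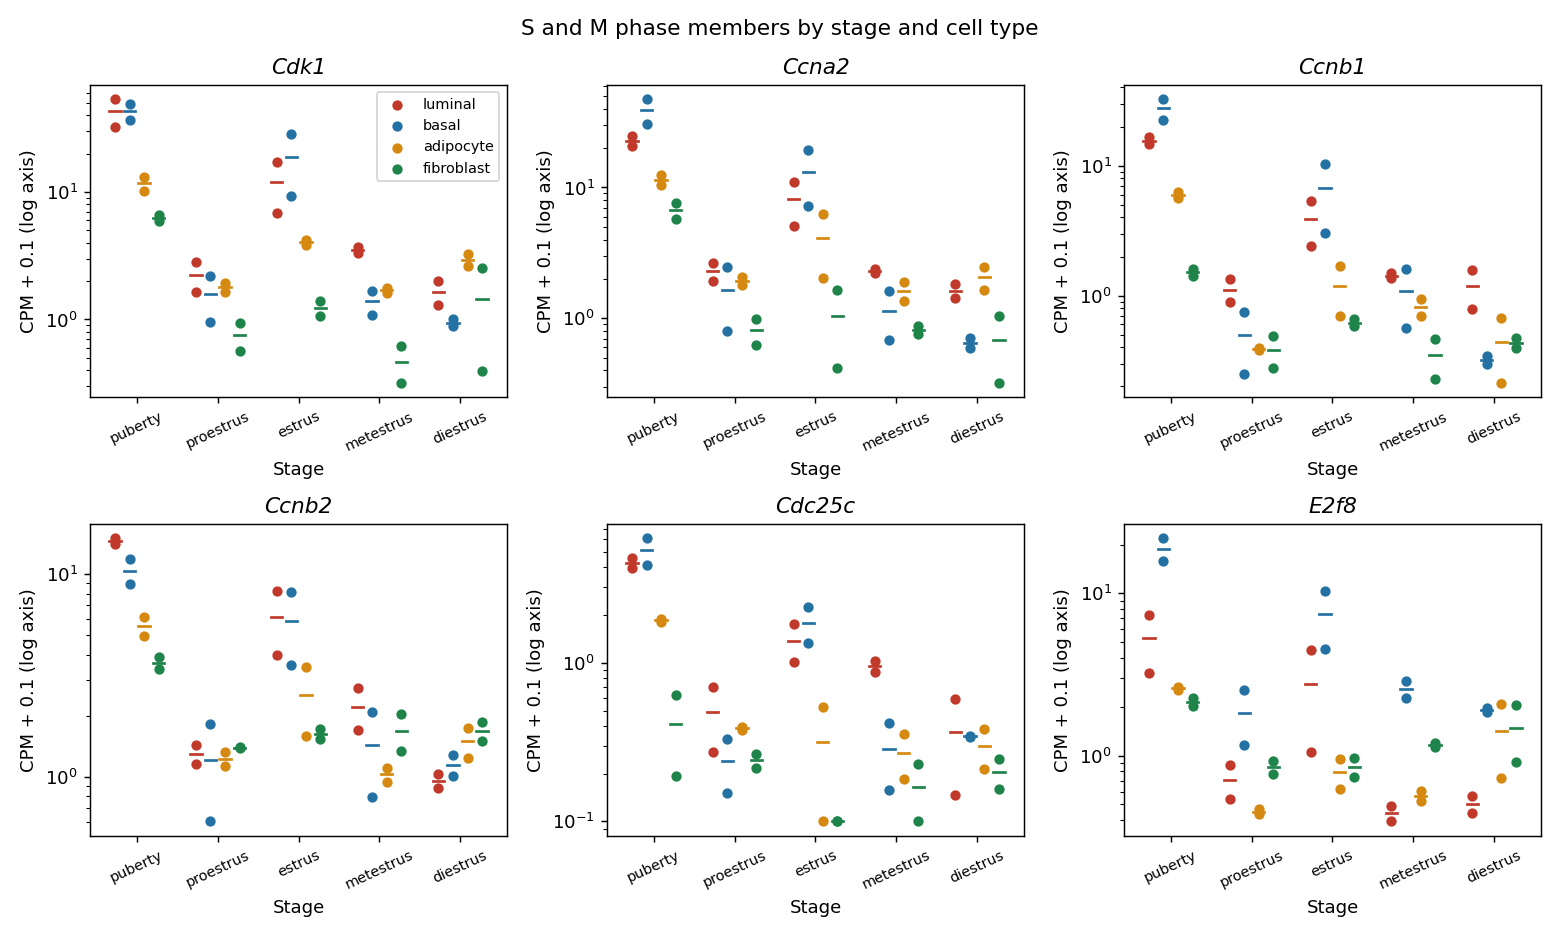
CPM + 0.1 on a log axis (vertical) of Cdk1, Ccna2, Ccnb1, Ccnb2, Cdc25c and E2f8 in puberty and the 4 adult stages (horizontal) in each cell type, with each library as a point. For Cdk1 the pubertal points lie highest in each cell type, and its basal estrus points, at 28.4 and 9.25 CPM, stand above the other adult stages, at most 2.1.

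Against the mean of the 4 adult stages, Cdk1, Ccna2, Ccnb1 and Ccnb2 were higher in pubertal cells of all 4 types. Ccne1, an E cyclin, was higher in luminal cells and was not called in the other 3, with log2 fold changes of 0.49 ± 0.37 in basal cells, 0.13 ± 0.28 in fibroblasts and -0.20 ± 0.30 in adipocytes. In luminal cells 20 of 47 members were higher and none was lower (all genes 10.8%, with 6.55% higher and 4.20% lower). In basal cells 26 of 47 were higher and 2 lower, where 49.3% of all genes were called (24.8% higher, 24.5% lower). In adipocytes 7 of 47 were higher and 1 lower (all genes 12.3%, with 6.10% higher and 6.21% lower), and in fibroblasts 11 of 45 were higher and 1 lower (all genes 18.9%, with 12.5% higher and 6.40% lower). Cdkn3 in luminal cells, Ccnb1, Cdc25c and E2f8 in adipocytes and Ccna2 and Ccnb1 in fibroblasts were called after passing the filter only through the pubertal libraries.

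Cdk1 was at 32.4 and 53.3 CPM in pubertal luminal cells against 1.19 to 17.1 (median 2.98) in the adult (3.63 ± 0.30, adjusted p = 0.000282). In basal cells it was at 48.7 and 36.7 CPM against 0.784 to 28.4 (4.20 ± 0.33, adjusted p = 8.88e-06). In adipocytes it was at 10.1 and 13 against 1.53 to 4.11 (2.26 ± 0.18, adjusted p = 0.00674) and in fibroblasts at 5.80 and 6.52 against 0.219 to 2.42 (3.08 ± 0.50, adjusted p = 0.00658). The pubertal libraries thus lay above all 8 adult libraries of their cell type, the estrus libraries included. The same held for 21.6% of all genes in basal and 9.35% in luminal cells, and for 11.9% in fibroblasts and 6.62% in adipocytes. Of the members it held for 22 of 47 in basal and 18 of 47 in luminal cells, 9 of 45 in fibroblasts and 8 of 47 in adipocytes. Members that passed the filter only through puberty are included. The pubertal libraries lay below for 1, 2, 4 and 0 members (23.7%, 9.47%, 14.7% and 6.58% of all genes). Ccna2 behaved like Cdk1, with log2 fold changes of 4.42 ± 0.37 in basal (adjusted p = 1.21e-05) and 3.03 ± 0.24 in luminal cells (adjusted p = 0.000225). In the stroma they were 3.22 ± 0.45 in fibroblasts (adjusted p = 0.00433) and 2.35 ± 0.36 in adipocytes (adjusted p = 0.0194), and none of its pubertal libraries overlapped the adult ones. Ccnb1 was higher by 4.99 ± 0.42 in basal cells (adjusted p = 1.22e-05), 3.33 ± 0.29 in luminal cells (adjusted p = 0.000311) and 3.42 ± 0.45 in adipocytes (adjusted p = 0.0144). Ccnb2 was higher by 2.92 ± 0.26 in luminal cells (adjusted p = 0.000311), by 1.94 ± 0.31 in adipocytes (adjusted p = 0.0205) and 1.34 ± 0.28 in fibroblasts (adjusted p = 0.0131).

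Other members joined them, each described here in a single cell type, though some stood out in others as well. The pubertal libraries of Cdc25c also lay above all adult ones in luminal cells and adipocytes, and those of Ccne2 in luminal and basal cells. Those of Rbl1 did so in adipocytes too, and those of Cdkn1b in basal cells. Cdkn3, a phosphatase that acts on Cdks, was at 1.92 and 3.68 CPM in pubertal luminal cells against 0.0459 to 0.97 (3.51 ± 0.35, adjusted p = 0.000554). Rbl1, the pocket protein of cycling cells, was at 20.7 and 15.3 CPM in pubertal basal cells against 1.27 to 6.74 (2.88 ± 0.25, adjusted p = 1.56e-05), and Cdc25c at 6.03 and 4.03 against 0.0502 to 2.15 (3.96 ± 0.36, adjusted p = 2.08e-05). In fibroblasts Ccne2, an E cyclin, was at 3.43 and 3.68 CPM against 0.32 to 1.46 (1.81 ± 0.34, adjusted p = 0.00981), and Rb1 at 29.2 and 25.5 against 6.89 to 20.1 (1.03 ± 0.21, adjusted p = 0.0118). Cdkn1b was at 75.4 and 51.7 CPM in pubertal adipocytes against 28.5 to 51.8 (0.73 ± 0.15, adjusted p = 0.0313), where the second library fell within the adult range. Without adipocyte puberty replicate 1 the log2 fold change of Cdkn1b was 0.43, and without any 1 of the proestrus, estrus or metestrus libraries it was 0.67 to 0.76. The call held in none of these fits. It was also lost with a replicate block (0.72 ± 0.16, adjusted p = 0.0560).

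Few members were lower in puberty. Cdk9 was at 47.0 and 47.1 CPM in pubertal basal cells against 73.9 to 97.2 (-0.81 ± 0.13, adjusted p = 0.000662) and at 55.4 and 53.1 in fibroblasts against 77.1 to 117 (-0.70 ± 0.14, adjusted p = 0.0109), without overlap. E2f4, the main repressing E2F of resting cells, was at 40.2 and 32.9 CPM in basal cells against 39.3 to 55.1 (-0.40 ± 0.14, adjusted p = 0.0308), with overlap. Without basal puberty replicate 2 it was -0.25 ± 0.18 (adjusted p = 0.321), and the call was also lost without basal puberty replicate 1, metestrus replicate 2 or diestrus replicate 2 and with no filter on low counts (adjusted p 0.0522 to 0.0594). Cdkn2c was at 32.7 and 25.7 CPM in pubertal adipocytes against 27.6 to 103 (-1.17 ± 0.29, adjusted p = 0.0448), where only adult diestrus replicate 2 reached down to the pubertal values. This call was lost without any 1 of 8 of the 10 libraries, the diestrus ones excepted (adjusted p 0.0652 to 0.131). With a replicate block the call of Cdkn2c was lost as well (-1.18 ± 0.31, adjusted p = 0.0697). The 7 adipocyte markers summed to 3575 and 9089 CPM in the pubertal adipocyte libraries against 4352 to 18583 in the adult ones. The 8 luminal markers summed to 1526 and 897 CPM against 144 to 1690, and the 7 fibroblast markers to 9187 and 18275 against at most 6704. The part of these other cells in the adipocyte values was not tested.

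**Figure D5:**
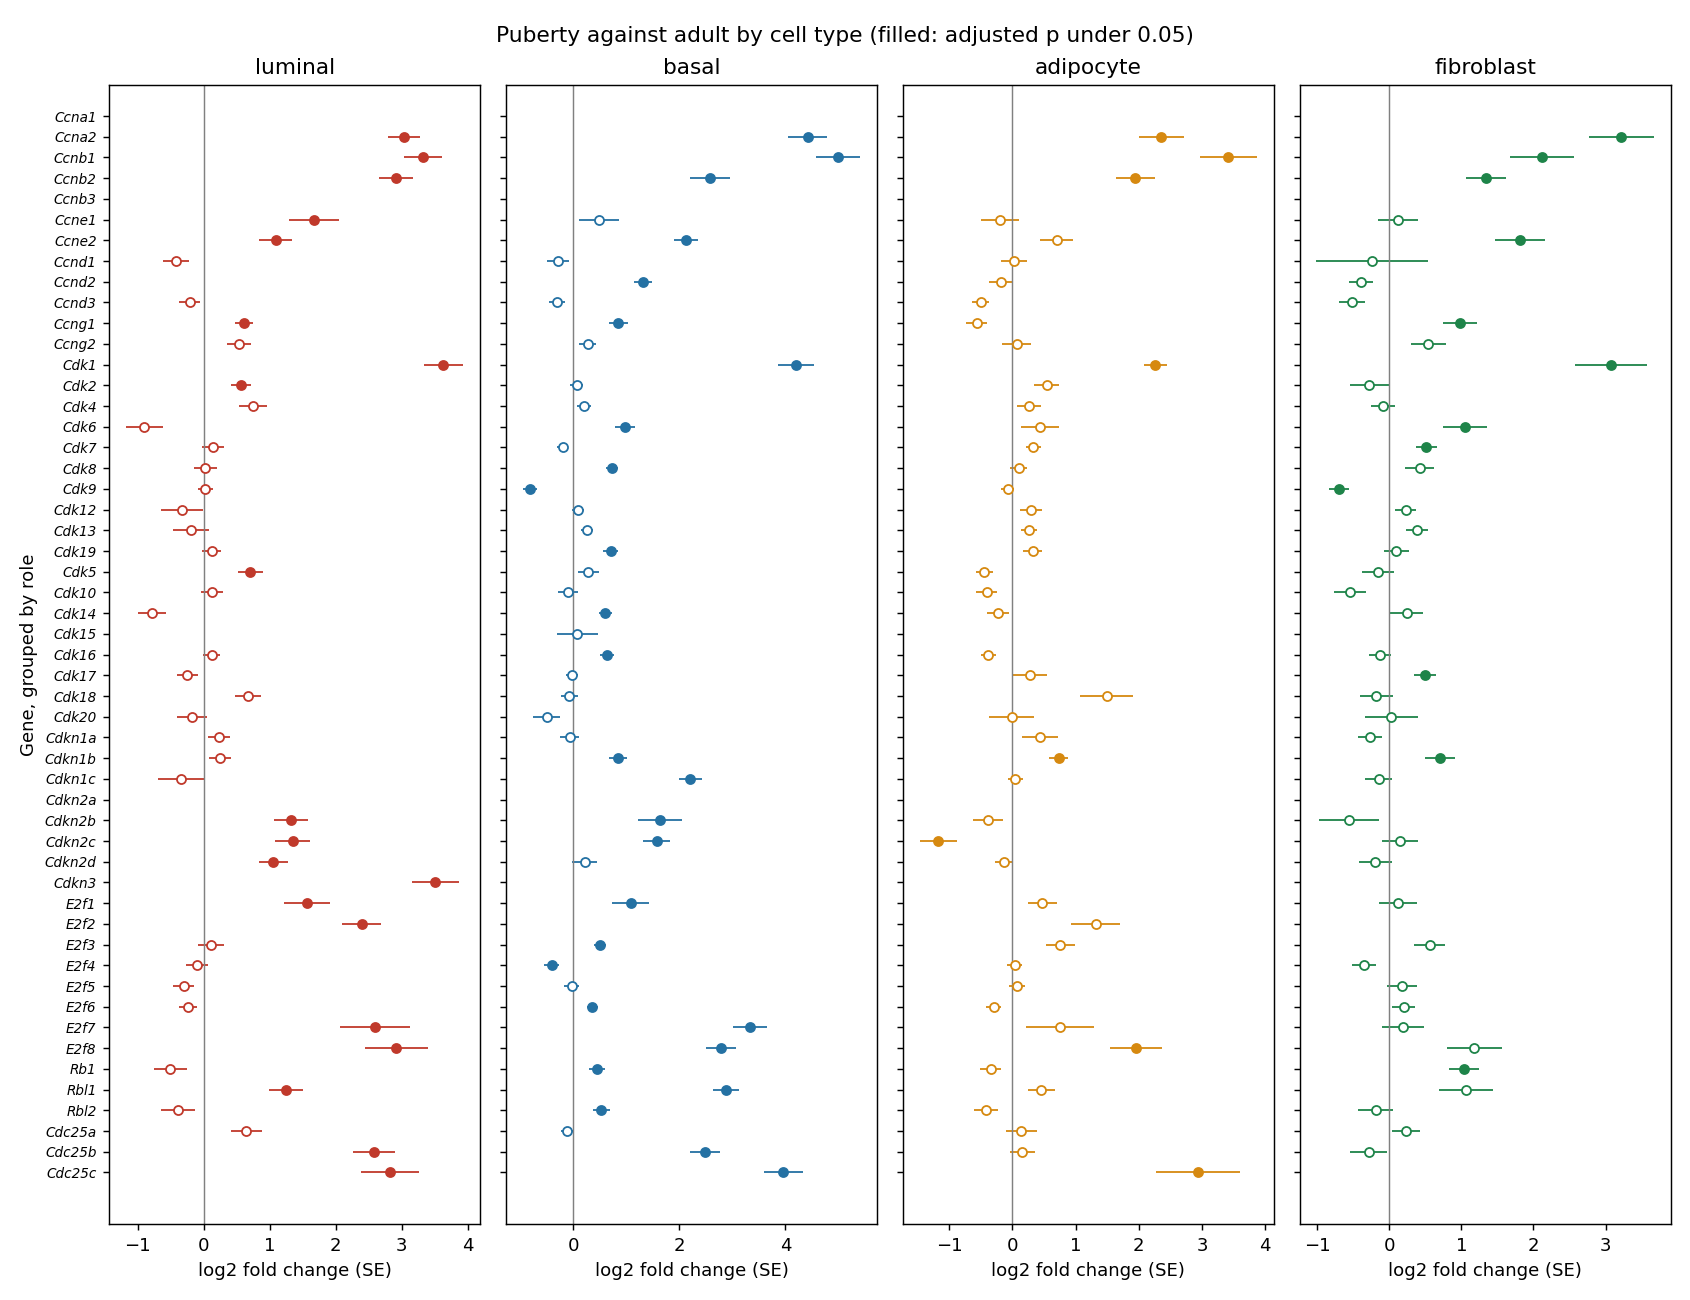
Log2 fold change (horizontal axis, ± SE) of each member tested between puberty and the mean of the adult stages, with 1 panel for each cell type. Filled points passed an adjusted p of 0.05; Cdk1 and Ccna2 were to the right in all 4 panels, at 4.20 and 4.42 in basal cells and 2.26 and 2.35 in adipocytes, and Cdk9 was to the left in basal cells and fibroblasts.

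The lists outside the module are given beside the share of all genes called higher, which was 24.8% in basal cells, 6.55% in luminal cells, 6.10% in adipocytes and 12.5% in fibroblasts. Of 20 mitotic genes 20 were higher in pubertal basal cells, 19 in luminal cells, 18 in adipocytes and 13 of the 18 tested in fibroblasts, and none was lower. In the adult libraries this list summed to 25.9 to 49.5 CPM in fibroblasts and 22.4 to 259 CPM in basal cells. Genes that were low in the adult could pass the filter through the pubertal libraries alone, and how many did was not counted for the lists. Of the 20 S phase and E2F target genes 17 were higher and 1 lower in basal cells, and 18 were higher in luminal cells, 7 in adipocytes and 2 of 19 in fibroblasts, the last no larger a share than that of all genes. Of the 26 partners and regulators 12 were higher and 3 lower in basal cells, 7 and 1 in luminal cells, 4 and 1 in fibroblasts and 4 and 0 in adipocytes, and the fibroblast share was near that of all genes. Mybl2 was higher in basal cells (2.61 ± 0.27, adjusted p = 4.65e-05), luminal cells (2.18 ± 0.40, adjusted p = 0.00924) and adipocytes (2.01 ± 0.28, adjusted p = 0.0165).

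Some of these counts rested on single libraries. In adipocytes the count of 8 called was 1 without adipocyte puberty replicate 1, without proestrus replicate 2 or without metestrus replicate 1, 2 without proestrus replicate 1, 4 without estrus replicate 2 or metestrus replicate 2 and 5 without estrus replicate 1. In fibroblasts the count of 12 was 2 without puberty replicate 1 and 0 without puberty replicate 2. The second pubertal luminal library stood apart from the first in several members, with 20 against 56.7 CPM for Cdk12, 29.3 against 53 for Rb1 and 13.7 against 83.2 for Mki67, while Cdk1 was higher in it. Without it 14 luminal members were called.

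Whether the pubertal difference itself differed between epithelium and stroma was tested over all 40 libraries. Of 49 members 13 differed toward epithelium and 1 toward stroma (all genes 15.7%, with 8.78% and 6.94%). The strongest was Cdc25b, the phosphatase that starts mitotic entry, with a difference in log2 fold change of 2.62 ± 0.32 (adjusted p = 4.09e-05). It was at 9.30 and 5.83 CPM in pubertal luminal cells against 0.459 to 3.74 and at 13 and 7.81 in basal cells against 0.968 to 3.82. In the stroma its pubertal and adult libraries overlapped (11.7 and 9.13 against 6.72 to 10.8 CPM in adipocytes, 3.60 and 4.54 against 3.84 to 8.64 in fibroblasts). Cdkn2c (2.00 ± 0.29, adjusted p = 0.000106) was higher in pubertal epithelium, at 4.97 and 5.44 CPM against 1.19 to 3.02 in luminal and 7.77 and 6.36 against 1.43 to 5.91 in basal cells, and lower in pubertal adipocytes. The adipocyte call was lost in several fits, as given above. Cdk16 (0.66 ± 0.12, adjusted p = 0.00119), Cdkn2b (1.99 ± 0.40, adjusted p = 0.00201) and E2f7 (2.51 ± 0.54, adjusted p = 0.00323), the other atypical E2F, followed. Cdk7 was the member that differed toward stroma (-0.42 ± 0.12, adjusted p = 0.0248). Its call was lost with no filter on low counts and without luminal puberty replicate 1, adipocyte puberty replicate 2 or any 1 of the basal and fibroblast pubertal libraries (adjusted p 0.0502 to 0.0821). The count of 14 was 9 without basal puberty replicate 1 and 9 without fibroblast puberty replicate 2.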

How the data were processed

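Polyadenylated RNA (stranded TruSeq libraries) of sorted luminal, basal and fibroblast populations and of floating adipocytes was sequenced in 40 libraries. The deposited counts per gene were made by the authors from single-end reads aligned with TopHat2 2.1 and Bowtie 1.1.0 to GRCm38/mm10 and counted with HTSeq; the strand setting and the annotation are not given in the sources used here. The deposited normalized tables (log2 of counts scaled to 10000000 per library) were not used. Gene symbols were matched by GENCODE M21 to 24739 of 25044 adult and 23989 of 24268 pubertal gene IDs, and 23180 IDs were in both tables. Libraries of a group differed by a chi-square per gene of 20.1 to 302, so that none was a duplicate.

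Levels are CPM scaled by TMM over the 40 libraries, or CPM per kb of summed exon. Comparisons were fitted on the counts with edgeR 4.0.16 (quasi-likelihood test, R 4.3.3, limma 3.58.1) over all genes above 1 CPM in at least 2 libraries of the fit, with Benjamini-Hochberg adjustment over all genes tested at 0.05. Cell types were fitted over the 32 adult or 8 pubertal libraries with stage means, stages and age within each cell type, and age by compartment over all 40. The p-values measure the spread between pools, which also holds any earlier or later time within a stage. DESeq2 1.42.0, omitting the filter on low counts, size factors by RLE, a newer quasi-likelihood method, joint fits, a replicate block and leaving out each library were alternatives, and the test was checked on simulated data.

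Full statistics are given mainly for at most 5 members per direction with the smallest adjusted p among those called, or 3 where none was called, and for at most 4 genes of each list. Some further members have them too, such as Ccnb2 in basal cells in estrus and all 14 flagged members. Other members are described by their levels. These further and other members were chosen after their values were seen. The members and the lists (S phase and E2F target genes, mitotic genes, partners and regulators, p53 targets, immediate early genes and cell type markers) were chosen with earlier results of these data known. The cell types of a replicate came from the same mice, except the second pubertal adipocyte library, which the block by number nevertheless joins to the others. Without the pubertal adipocytes the deviations of such pairs had a median correlation of 0.104 (27 pairs, 15 over 0.1), and the shared mice pair the cell types. Sequences are from RefSeq on GRCm38.p6.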

Additional observations from a re-analysis of the deposited data

Results flagged for a closer look

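For 14 members the difference between puberty and the adult differed between epithelium and stroma by a test of that difference (edgeR's quasi-likelihood test on all 40 libraries, epithelial minus stromal log2 fold change). For the inhibitors it was 2.00 ± 0.29 for Cdkn2c (adjusted p = 0.000106), 1.99 ± 0.40 for Cdkn2b (adjusted p = 0.00201), 1.0 ± 0.24 for Cdkn1c (adjusted p = 0.00679) and 0.83 ± 0.22 for Cdkn2d (adjusted p = 0.0129). For genes of the cycle and the E2F group it was 2.62 ± 0.32 for Cdc25b (adjusted p = 4.09e-05), 2.51 ± 0.54 for E2f7 (adjusted p = 0.00323), 1.33 ± 0.33 for Rbl1 (adjusted p = 0.00896), 1.14 ± 0.38 for Ccne1 (adjusted p = 0.0438), 1.05 ± 0.36 for E2f1 (adjusted p = 0.0457) and 1.13 ± 0.39 for Ccnb2 (adjusted p = 0.0466). For other Cdks it was 0.66 ± 0.12 for Cdk16 (adjusted p = 0.00119), 0.83 ± 0.20 for Cdk5 (adjusted p = 0.00652), 0.52 ± 0.17 for Cdk10 (adjusted p = 0.039) and -0.42 ± 0.12 for Cdk7 (adjusted p = 0.0248). Age and sequencing run cannot be told apart in these values.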

How the results depend on the processing

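No named gene result turned its direction under any alternative. Counts of members called changed by over 1.5 times as follows, and the cause was not tested. DESeq2 called 22.4% of all genes for puberty in adipocytes, and its other shares are given above. For the other settings, and where a library was left out, the share of all genes called is not given here. Those counts can therefore not be told apart from a change in calls over all genes. With DESeq2 they were 7, 2 and 5 in estrus in luminal cells, adipocytes and fibroblasts, 5, 13, 10 and 9 over the pairs of stages in luminal, basal, adipocyte and fibroblast cells, 14 for puberty in adipocytes and 2 for the estrus difference between compartments. With no filter on low counts they were 13, 15 and 4 in estrus in luminal, basal and fibroblast cells, 15, 18, 1 and 11 over the pairs, 3 for the estrus and 9 for the puberty difference between compartments. With joint fits they were 4 and 8 in estrus in luminal cells and fibroblasts, 5, 13 and 14 over the pairs in basal cells, adipocytes and fibroblasts and 16 for puberty in adipocytes, and RLE size factors gave 1 over the adipocyte pairs.

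Leaving out each library gave 38 to 41, 32 to 36 and 32 to 35 members in the adult comparisons of epithelium with stroma, luminal with basal cells and adipocytes with fibroblasts, and 16 to 23, 8 to 19 and 2 to 13 in puberty. In estrus it gave 0 to 5 in luminal cells, 0 to 7 in basal cells, 0 in adipocytes and 0 to 2 in fibroblasts (2 without fibroblast estrus replicate 2), and over the pairs 0 to 3, 0 to 6, 0 to 8 and 0 to 3. The pair counts were 3 without luminal estrus replicate 2, 6 without basal estrus replicate 2, 3 without basal proestrus replicate 1 or 2, 8 and 4 without adipocyte diestrus replicate 1 and 2, and 3 without fibroblast estrus replicate 2. For puberty it gave 14 to 27 in luminal cells, 21 to 29 in basal cells, 1 to 12 in adipocytes and 0 to 14 in fibroblasts, and for the estrus and puberty differences between compartments 0 to 4 and 9 to 18.

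With a replicate block the puberty count in adipocytes was 4 and the estrus count in basal cells 4, where E2f8 lost its call (1.86, adjusted p = 0.0837); with the pool as a block the adult cell type counts were 40, 36 and 37, and no other count moved by over 1.5 times. Stages of a cell type came from different mice and share a number that marks at most an earlier or later pool, and their 24 pairs had correlations of -0.564 to 0.427. With 2 libraries a group, and members such as Ccnb1 at a few reads outside estrus, small changes were not detectable.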

Other observations

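Of 12 p53 target genes outside the module, 6 were higher and 5 lower in adult epithelium than in stroma, 6 and 5 in luminal than in basal cells, and 4 and 7 in adipocytes than in fibroblasts. Of all genes 81.6%, 73.6% and 78.4% were called in these comparisons, so that most genes of any kind were called there. In puberty against the adult 3 were higher and 4 lower in basal cells, 1 and 1 in luminal cells, 3 and 1 in fibroblasts and 2 and 1 in adipocytes, and none passed in estrus in any cell type (edgeR's quasi-likelihood test). Of all genes 49.3%, 10.8%, 18.9% and 12.3% were called in puberty in these cell types, in that order. In estrus 1.21% were called in basal cells and 0% in the others.

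Of 12 immediate early genes, 2 were higher and 8 lower in adult epithelium than in stroma, 6 and 2 in luminal than in basal cells, and 0 and 10 in adipocytes than in fibroblasts. In the same order, 40.2% of all genes were higher and 41.5% lower, 35.3% and 38.3%, and 39.2% and 39.1%. In puberty 9 were lower in basal cells, 7 in fibroblasts, 2 in luminal cells and 0 in adipocytes, and none was higher. Of all genes 24.5%, 6.40%, 4.20% and 6.21% were lower there, in that order. The immediate early genes were also summed. Their summed level in fibroblasts was 8613 to 19806 CPM in the adult and 5445 and 6237 CPM in puberty.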
